A study of Mus musculus with 6 samples.

Results

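The nuclear receptors are a family of transcription factors that bind DNA and, in many members, a small lipid-soluble ligand such as a fatty acid, a bile acid, an oxysterol or a steroid. They were examined here in the liver of mice fed a high-fat diet (HFD). The set comprised 40 receptor genes, taken by gene symbol from a list that left out *Nr1d1* and *Nr1d2*, among 21528 genes listed in at least 1 liver. The rule uses no measured value. RNA was sequenced from 3 wild-type (WT) and 3 TRIM24 C52/55A knockin livers, with 1 library per mouse, and the latter are called knockin livers below. All mice were of the C57BL/6 strain by their labels (the knockin was made on C57Bl/6J, per the study's methods), were 5 months old and had received a diet with 60% fat for 3 months. TRIM24 is a co-regulator of nuclear receptors and a ubiquitin E3-ligase. The knockin carries alanine in place of a pair of cysteines that the ligase needs, in every tissue and on both alleles, and the WT mice were littermates. The labels give neither the sex of these mice nor the hour at which their livers were taken (the study used males of this age and diet for other liver measurements), and whether *Trim24* acted in hepatocytes or in another cell cannot be read from a whole-body allele.

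Levels are given as FPKM, the fragments of a gene per kilobase of its transcript, scaled to the mapped fragments of its library, so levels of different genes can be set side by side per length. *Trim24* itself was at 5.54, 4.85 and 5.96 FPKM in WT livers against 6.15, 4.31 and 8.46 FPKM in knockin livers. The knockin exchanges codons and keeps the gene, so its level is no check of the genotype labels. FPKM keep no read count, and the steps between low values put the depth of the libraries within 0.961 to 1.03 times that of WT replicate 1. Spearman correlations across genes, which are not independent replicates, were 0.958 to 0.966 within and 0.956 to 0.960 between the genotypes. The sum of all FPKM was 644619 to 648221 per WT library and 673244 to 676791 per knockin library. In 1 liver, knockin replicate 2, adipocyte genes were present, and in another, WT replicate 2, immediate early genes were high; their values stand beside the receptors they touch. With 3 livers per group, a p-value weighs a difference against the spread between these livers and speaks for these samples only. The p-values of limma, the test used below, also draw on the variance of the other genes tested.

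A nuclear receptor reads its DNA site with a zinc finger whose recognition helix starts in a short stretch called the P-box. Most receptors of lipid sensing bind as a heterodimer with a retinoid X receptor (RXR), steroid receptors bind as homodimers, and a few orphan receptors bind alone. In the liver, the peroxisome proliferator-activated receptors (PPARs) handle fatty acids, the liver X receptors (LXRs) sense oxysterols, the farnesoid X receptor (FXR) senses bile acids, and the constitutive androstane receptor (CAR) and pregnane X receptor (PXR) respond to drugs and other foreign compounds. HNF4A maintains the gene programme of the hepatocyte.

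The P-box codons are shown because they place the receptors that differed between the genotypes, and their closest relatives, in 1 frame of DNA recognition. They were read from GENCODE M21 transcripts on GRCm38 as the 18 bases, or 6 codons, that match the family pattern. A match was found in 38 of the 40 genes, and none was found in *Nr0b2* and *Nr2e3*. In 25 of the 38 genes the bases encode the same residues, among them every PPAR, LXR, RXR, CAR, PXR and FXR gene, and the remaining 13 genes fall into 6 other groups. Each line below runs 5′ to 3′ on the coding strand, and capitals mark bases that differ from *Pparg*. The first 7 lines share the encoded residues, and the last 4 are members of other groups.
Pparg: tgtgaaggatgcaagggt
Ppara: tgtgaaggCtgTaagggC
Ppard: tgCgaGggGtgcaagggC
Nr1i3 (CAR): tgtgaGggCtgcaagggC
Nr1i2 (PXR): tgtgaaggatgcaagggG
Nr1h2 (LXRβ): tgtgaaggCtgcaaAggC
Nr1h3 (LXRα): tgCgaGggCtgcaagggA
Hnf4a: tgtgaCggCtgcaagggG
Nr2f6: tgCgaGggCtgcaagAgt
Esrra: tgtgaGgCCtgcaaAgCC
Nr3c2: tgCgGCAgCtgcaaAgTC

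The *Nr1i3* P-box lies at chr1:171214460-171214477 on the plus strand and that of *Nr1h2* at chr7:44552100-44552117 on the minus strand, each within 1 coding exon. That of *Pparg* starts at codon 156 of the 505 codons of transcript Pparg-201 and is split by an intron, so that its ends span chr6:115441647-115450946 on the plus strand. The P-box was split by an intron in 12 of the 38 genes, which include all 3 PPARs. The motif AGGTCA, the 6-base element most of these receptors read, was also searched on both strands in the 250 bases before each gene start in RefSeq (GRCm38.p6). It was present in 15.5% of 58 windows of the receptor genes and in 14.0% of 32851 windows of all genes. The *Nr1i3* and *Nr1h2* windows held no copy, and *Pparg*, which has 3 windows, held 1 copy in each of the windows at the upstream pair of starts, where 193 and 57 of the 250 bases also lie in GENCODE exons.

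Of the 40 receptor genes, 38 were listed in at least 1 liver and 34 in all 6. *Rorb* and *Nr2e3*, known for retina and brain, were listed in none of the 6 tables. The mean over the 6 livers was at least 10 FPKM for 13 genes, 1 to 10 FPKM for 17 genes and 0.5 to 1 FPKM for 1 gene, and it lay under 0.5 FPKM for 7 genes. The 31 genes that averaged 0.5 FPKM or more, 77.5% of the set, are called expressed below and were tested. The 7 listed genes below the limit and the 2 without a value were not. A gene without a value was taken as 0, which need not mean that it was not expressed, since *Alb*, the abundant albumin gene of hepatocytes, had no value here either. *Esrrg* lay just inside that limit with 0.505 FPKM and *Nr2f1* just outside it with 0.458 FPKM. The genes below it were *Nr2f1*, *Esrrb*, *Nr4a2*, *Nr4a3*, *Hnf4g*, *Vdr* and *Pgr*. The vitamin D receptor gene *Vdr* was at or under 0.0636 FPKM in every liver, the progesterone receptor gene *Pgr* was listed in 2 livers at up to 0.0150 FPKM, and *Hnf4g*, the intestinal relative of *Hnf4a*, was listed in 2 livers at up to 0.164 FPKM.

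*Hnf4a* was the highest receptor gene, with 146, 147 and 151 FPKM in the WT livers and 148, 158 and 149 FPKM in the knockin livers. *Rxra*, the main heterodimer partner, followed with 103, 98.2 and 112 FPKM in WT against 101, 100.4 and 86.8 FPKM in knockin livers. The order of *Rxra* and the next gene, *Nr1i3*, differed between the genotypes, with *Nr1i3* above *Rxra* in each WT liver and below it in each knockin liver. These 3 genes held 50.3% of the FPKM summed over the set in all libraries. After them came *Nr1h3*, *Nr1h4*, *Nr0b2*, *Nr2f6*, *Ppara*, *Nr1i2*, *Nr1h2*, *Rxrb*, *Nr5a2* and *Nr2f2*. Over 6 livers *Nr1h3* spanned 40.7 to 51.9 FPKM and *Nr1h4* 34.9 to 47.7 FPKM, and the ranges of these neighbours overlapped, as did those of *Nr0b2* (27.8 to 70.2 FPKM), *Nr2f6* (28.5 to 36.5 FPKM) and *Ppara* (19.8 to 34.8 FPKM).

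**Figure D1:**
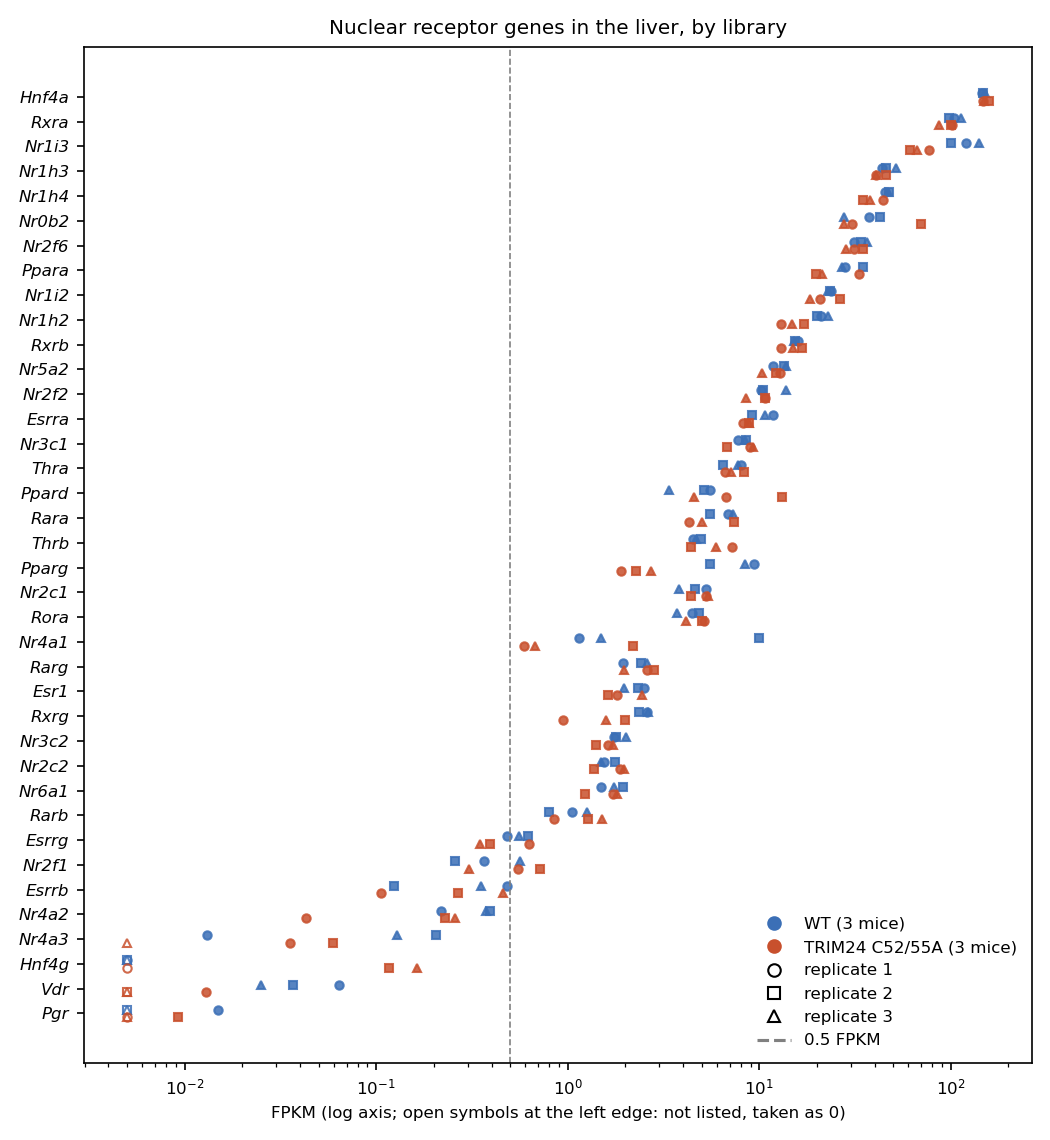
FPKM (log axis) of the 38 listed receptor genes in each of 3 WT (blue) and 3 TRIM24 C52/55A (orange) livers, ordered by the mean, with circles, squares and triangles for replicates 1 to 3 and open symbols for a library in which a gene was not listed. The levels run from 158 FPKM (*Hnf4a*) to below 0.02 FPKM (*Pgr*), and the blue and orange symbols of *Pparg* and *Nr1i3* stand apart.

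The genotypes were then compared for each expressed receptor. Differences are log2 fold changes of knockin over WT on log2(FPKM + 1), from limma fitted over 12225 genes with Benjamini-Hochberg adjustment over all of them, and "fell" means an adjusted p-value under 0.05. This scale understates the change of genes of low FPKM. *Pparg*, *Nr1i3* and *Nr1h2* fell, 0 receptors rose and 28 did not pass the test. The 3 genes are 9.68% of the 31, and over all genes tested 7.72% passed, 6.09% lower and 1.64% higher. At an unadjusted p under 0.05 there were 6 receptors, all lower in the knockin liver, where 23.6% of all genes tested had such a p. The share of receptors called is thus close to that of all genes.

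Most receptors lay slightly below 0 on the scale as deposited, as did most genes. Of the 31, 21 (67.7%) had a negative difference, against 65.5% of all genes tested, and the median was -0.11 against -0.08 on the log2 scale. With quantile normalization 48.4% of the receptors and 47.7% of all genes were below 0 and both medians were 0.01, and with median-of-ratios scaling 61.3% and 48.6% were below 0, with medians of -0.02 and 0.01. The values of WT and knockin livers did not overlap in 7 receptors (22.6%), each lower in the knockin liver, and 22.5% of all genes tested did so in that direction and 6.31% in the other. These 7 were *Pparg*, *Nr1i3*, *Nr1h2*, *Rxrg*, *Nr1h4*, *Esrra* and *Nr3c2*. Of the 28 receptors that did not pass, 21 had a 95% interval within 0.5 log2 units of 0 and 26 within 1 unit. The scale log2(FPKM + 1) also narrows the intervals of genes of low FPKM. With 0.1 added in place of 1, the SE was 0.155 against 0.103 for *Nr3c2* and 0.249 against 0.159 for *Rxrg*.

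**Figure D2:**
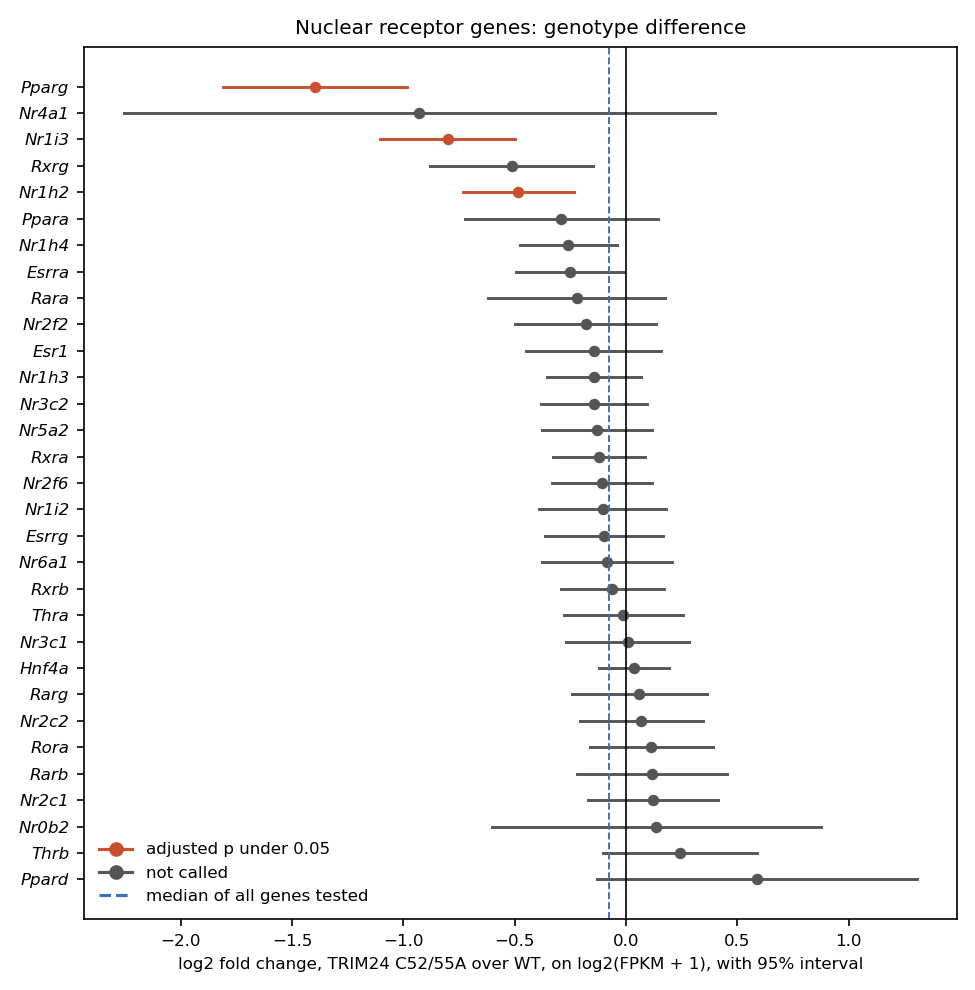
Log2 fold change of TRIM24 C52/55A over WT on log2(FPKM + 1) for the 31 expressed receptor genes (points) with 95% intervals from limma (lines), 3 livers per genotype, with the median of all genes tested as a dashed line. *Pparg*, *Nr1i3* and *Nr1h2* (orange) passed an adjusted p of 0.05, the intervals of *Nr4a1*, *Ppard* and *Nr0b2* are the widest, and that of *Hnf4a* is narrow around 0.04.

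The PPARs are receptors for fatty acids and their derivatives. *Pparg*, which promotes lipid storage and is highest in fat tissue, lies on chr6:115360951-115490399 (GRCm38, plus strand). WT replicates 1 to 3 had 9.42, 5.55 and 8.39 FPKM, and knockin replicates 1 to 3 had 1.90, 2.27 and 2.71 FPKM. All 3 knockin livers were below all WT livers. The means were 7.79 ± 2.01 and 2.29 ± 0.405 FPKM (SD, n = 3 each), a ratio of 0.294, and the log2 fold change was -1.40 (SE 0.18, 95% interval -1.81 to -0.98, adjusted p = 0.00491).

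*Ppara*, the receptor that drives fatty acid oxidation in the fasting liver, was the most abundant PPAR gene. It had 28.02, 34.8 and 27.1 FPKM in WT against 33.4, 19.8 and 21.2 FPKM in knockin livers. The groups overlapped, since knockin replicate 1 lay above WT replicates 1 and 3, and the log2 fold change of -0.29 (95% interval -0.73 to 0.14) did not pass (adjusted p = 0.407). It was -0.52 without knockin replicate 1 (adjusted p = 0.0873) and -0.155 without knockin replicate 2 (adjusted p = 0.635). *Ppard*, the widely expressed PPAR, is given here because of its values: 5.52, 5.17 and 3.38 FPKM in WT against 6.67, 13.1 and 4.56 FPKM in knockin livers. The groups overlapped and replicate 2 of the knockin group was highest, with a log2 fold change of 0.59 (95% interval -0.13 to 1.31, adjusted p = 0.308) and of 0.22 without that liver. Of the FPKM summed over the 3 PPAR genes, *Pparg* held 18.6% ± 5.53 in WT and 6.83% ± 2.51 in knockin livers (SD, n = 3 each), *Ppara* 70.4% ± 5.65 and 70.1% ± 12.2, and *Ppard* 11.0% ± 2.10 and 23.1% ± 12.3.

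*Pparg* is also a defining gene of adipocytes, and 1 liver carried adipocyte genes. *Adipoq*, *Plin1* and *Lep* had 4.55, 3.32 and 3.98 FPKM in knockin replicate 2, and no other liver exceeded 0.127 FPKM. Not all of the list was high there. *Cfd*, the adipsin gene, had 4.17, 8.62 and 3.10 FPKM in WT against 0.112, 2.54 and 0.821 FPKM in knockin livers, lower without overlap as *Pparg* was but not past the test (log2 fold change -1.61, adjusted p = 0.0617). *Pparg* in that liver lay between the other knockin livers, and without it the log2 fold change was -1.40 (adjusted p = 0.0125). Of the 8 adipocyte markers 5 were tested and 0 called by limma (1, *Cfd*, with an unadjusted p under 0.05), and the 8 summed to between 1894 and 2262 in WT and between 1453 and 2136 FPKM in knockin livers, nearly all of it from *Car3*, which hepatocytes also express and which was lowest in knockin replicate 2 (1436 FPKM). What part the cells that express *Cfd* had in the *Pparg* result was not tested. In bulk tissue, fewer cells of a type and less RNA per cell cannot be told apart.

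CAR and PXR are the receptors that induce drug-metabolizing enzymes. *Nr1i3*, which encodes CAR, spans chr1:171213970-171222514 in the files (plus strand). It had 120.0, 101 and 140 FPKM in WT against 76.8, 61.0 and 67.0 FPKM in knockin livers. The lowest WT liver was above the highest knockin liver. The means were 120.2 ± 19.6 and 68.3 ± 7.95 FPKM (SD, n = 3 each), a ratio of 0.568, with a log2 fold change of -0.80 (SE 0.13, 95% interval -1.11 to -0.50, adjusted p = 0.0127). Without WT replicate 1 the change was -0.80 and the adjusted p 0.0520.

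On the scale as deposited, the summed FPKM of the set was lower in the knockin livers, and *Nr1i3* made up a large part of that difference. The sums were not made with other scaling. Such scaling moved the median log2 fold change of the receptors from -0.11 to -0.02 (median-of-ratios) and 0.01 (quantile normalization). The 40 genes summed to 717, 714 and 757 FPKM in WT against to 644, 685 and 594 FPKM in knockin livers, without overlap (exact permutation test on the sums, two-sided p = 0.1, the smallest that 3 against 3 can give). The means differed by 88.1 FPKM, of which *Nr1i3* gave 51.9 FPKM, or 59.0%. That share was 44.0% without knockin replicate 2, 79.4% without knockin replicate 3 and 55.2% to 64.4% without 1 of the other livers. The interval of the files for *Nr1i3* is longer than in GENCODE, and all of its 8545 bases overlap *Tomm40l*, a gene of a mitochondrial import protein, with 8.24 FPKM in WT against 8.85 FPKM in knockin livers (log2 fold change 0.11, adjusted p = 0.707). How fragments were shared between the 2 genes is not given in the sources used here.

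*Nr1i2*, which encodes PXR, had 23.6, 23.4 and 22.7 FPKM in WT against 20.7, 26.3 and 18.4 FPKM in knockin livers. The WT values were close together and the knockin values lay on both sides of them (log2 fold change -0.11, 95% interval -0.39 to 0.18, adjusted p = 0.669). CAR thus made up 83.6% ± 2.44 of the pair's FPKM in WT against 75.7% ± 5.04 in knockin livers (SD, n = 3 each). Markers of hepatocytes, which hold most CAR of the liver, summed to between 19940 and 20780 FPKM in WT against between 19130 and 21410 FPKM in knockin livers. Of the 7 tested, *Cyp2e1* fell, *Cps1* rose and 5 did not pass, and their part in the result was not tested.

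The LXRs activate genes of cholesterol export and of fatty acid synthesis. *Nr1h2*, which encodes the broadly expressed LXRβ, lies on chr7:44549616-44553951 (minus strand). It had 21.0, 20.0 and 22.8 FPKM in WT against 13.05, 17.1 and 14.8 FPKM in knockin livers. The groups did not overlap, the means being 21.3 ± 1.37 and 15.0 ± 2.04 FPKM (SD, n = 3 each), a ratio of 0.704. The log2 fold change was -0.48 (SE 0.11, 95% interval -0.73 to -0.23) and passed with an adjusted p of 0.0342. This call was close to the threshold: it was lost without any 1 of WT replicates 1, 2 and 3 and knockin replicates 1 and 3 (adjusted p = 0.106, 0.0713, 0.135, 0.108 and 0.0737), and kept without knockin replicate 2 (adjusted p = 0.0152).

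*Nr1h3*, which encodes LXRα, the main LXR of the hepatocyte, had 43.8, 45.7 and 51.9 FPKM in WT against 40.9, 46.0 and 40.7 FPKM in knockin livers. The groups overlapped (log2 fold change -0.14, 95% interval -0.36 to 0.07, adjusted p = 0.398). LXRβ held 31.1% ± 1.14 of the FPKM of both LXR genes in WT and 26.0% ± 1.58 in knockin livers (SD, n = 3 each). *Nr1h2* is also expressed in macrophages, and all 8 Kupffer cell and macrophage markers had a negative difference, with 0 called by limma, 2 at an unadjusted p under 0.05, and sums of 166 to 216 FPKM in WT against 144 to 193 FPKM in knockin livers. Their part in the result was not tested.

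Pairs of related receptors were also compared within each liver, as the difference between their log2(FPKM + 1) values. For *Pparg* minus *Ppara* it differed by -1.105 between the means of knockin and WT livers, with WT values of -2.45 to -1.48 and knockin values of -3.57 to -2.59. On the same scale, *Pparg* minus *Ppard*, *Nr1h2* minus *Nr1h3*, *Nr1i3* minus *Nr1i2* and *Rxrg* minus *Rxra* differed by -1.99, -0.34, -0.70 and -0.39. In each of the 5 pairs, which were chosen after their values were seen, the groups did not overlap, with p = 0.1 in the two-sided exact permutation test and 0.1 after adjustment over the 5 pairs, the smallest value 3 against 3 can give.

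**Figure D3:**
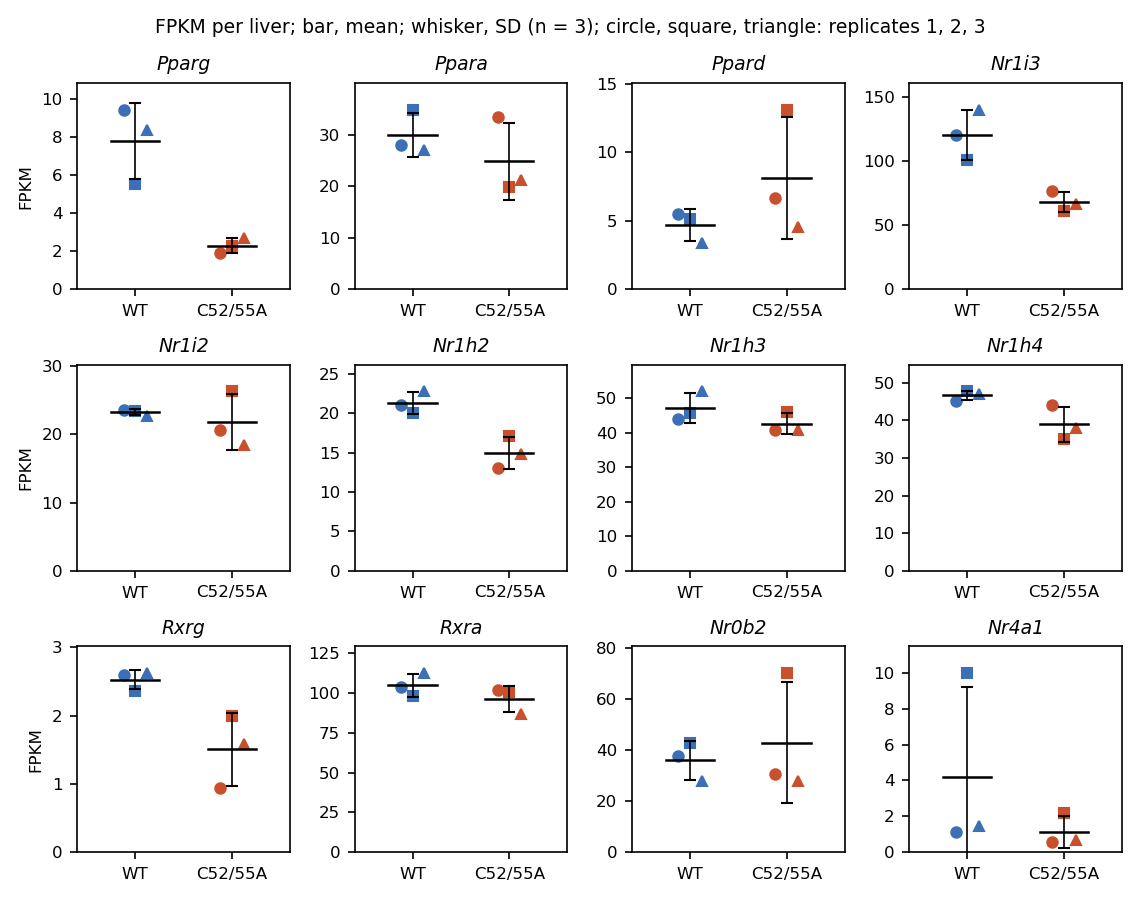
FPKM (linear axes from 0) of 12 receptor genes in each liver of 3 WT (blue) and 3 TRIM24 C52/55A (orange) mice, with bars at the mean, whiskers of 1 SD (cut at 0) and circles, squares and triangles for replicates 1 to 3. The groups are separate for *Pparg*, *Nr1i3*, *Nr1h2*, *Nr1h4* and *Rxrg* and overlap for *Ppara*, *Ppard*, *Nr1i2*, *Nr1h3*, *Rxra*, *Nr0b2* and *Nr4a1*.

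The RXRs are the shared partners of PPARs, LXRs, FXR, CAR and PXR. *Rxra* (values above) had a log2 fold change of -0.12 (95% interval -0.33 to 0.09, adjusted p = 0.472), and *Rxrb*, the ubiquitous form, had means of 15.5 ± 0.337 and 14.9 ± 1.90 FPKM (adjusted p = 0.773). *Rxrg*, which is best known from muscle and brain, had 2.59, 2.36 and 2.63 FPKM in WT against 0.942, 1.998 and 1.58 FPKM in knockin livers. Its groups did not overlap, and it was nearest to the threshold among the receptors that did not pass (log2 fold change -0.51, 95% interval -0.88 to -0.15, adjusted p = 0.0934). Without knockin replicate 2 it passed, with a change of -0.65 (adjusted p = 0.0351), the only 1 of 15 alternative settings in which it did. Without knockin replicate 1 the change was -0.34 (adjusted p = 0.208). *Rxra* made up 85.3% ± 0.887 of RXR FPKM in WT against 85.4% ± 2.19 in knockin livers (SD, n = 3 each).

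FXR and its target SHP form the feedback loop that limits bile acid synthesis. *Nr1h4*, which encodes FXR, had 45.2, 47.7 and 47.0 FPKM in WT against 44.0, 34.9 and 37.99 FPKM in knockin livers. The groups did not overlap, by a small margin between WT replicate 1 and knockin replicate 1, and the log2 fold change of -0.26 (SE 0.10) did not pass (adjusted p = 0.146). *Nr0b2*, which encodes SHP, a receptor that lacks a DNA-binding domain and represses others, had 37.6, 42.9 and 27.8 FPKM in WT against 30.6, 70.2 and 27.8 FPKM in knockin livers. Knockin replicate 2 stood above the other 5, and the groups overlapped (log2 fold change 0.14, 95% interval -0.60 to 0.88, adjusted p = 0.845). The change of *Nr0b2* was 0.38 without knockin replicate 3, -0.035 without WT replicate 3 and -0.28 without knockin replicate 2. *Cyp7a1*, the rate-limiting enzyme of bile acid synthesis and a gene SHP represses, was lowest in that same liver, with 14.2, 9.65 and 13.8 FPKM in WT against 20.1, 2.28 and 25.3 FPKM in knockin livers (log2 fold change -0.13, adjusted p = 0.933; named for its values). Without knockin replicate 2 *Cyp7a1* was higher in the knockin group, with a log2 fold change of 0.81 (adjusted p = 0.0336). In every other setting its difference was negative and did not pass (adjusted p = 0.614 to 0.988), with -0.69 without knockin replicate 3.

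*Hnf4a*, *Nr5a2*, *Nr2f6* and *Nr2f2* did not pass the test. *Hnf4a* had a log2 fold change of 0.04 (95% interval -0.12 to 0.19, adjusted p = 0.798). *Nr5a2*, which encodes LRH-1, a receptor that supports bile acid genes, had means of 12.97 ± 1.08 and 11.8 ± 1.34 FPKM (adjusted p = 0.525). Of the COUP-TF group, orphan receptors that often act as repressors, *Nr2f6* had 31.2, 34.1 and 36.5 FPKM in WT against 31.1, 34.8 and 28.5 FPKM in knockin livers, with overlap (adjusted p = 0.568). *Nr2f2* had means of 11.5 ± 2.0 and 9.99 ± 1.31 FPKM (adjusted p = 0.487), over an interval that in the files is 9.33 times as long as the gene in GENCODE.

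Among steroid and estrogen-related receptors, *Esrra*, which supports mitochondrial genes, had 11.7, 9.11 and 10.7 FPKM in WT against 8.21, 8.88 and 8.83 FPKM in knockin livers. The groups did not overlap, and the log2 fold change of -0.25 did not pass (SE 0.11, adjusted p = 0.197). *Nr3c2*, the mineralocorticoid receptor gene, had 1.75, 1.79 and 2.01 FPKM in WT against 1.62, 1.41 and 1.72 FPKM in knockin livers, which also did not overlap (log2 fold change -0.14, adjusted p = 0.459). *Nr3c1*, which encodes the glucocorticoid receptor, was nearly level, at 8.21 ± 0.436 and 8.32 ± 1.35 FPKM (SD, n = 3 each; 95% interval of the log2 fold change -0.27 to 0.29). *Esr1*, the estrogen receptor gene of the liver, had means of 2.26 ± 0.271 and 1.96 ± 0.432 FPKM (adjusted p = 0.569).

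The thyroid hormone receptor genes *Thra* and *Thrb* had log2 fold changes of -0.01 and 0.24 (adjusted p = 0.964 and 0.387), and the retinoic acid receptor genes *Rara*, *Rarb* and *Rarg* of -0.22, 0.12 and 0.06 (adjusted p = 0.502, 0.696 and 0.833). Their levels lay between 0.801 and 8.34 FPKM in every liver. *Rora*, which takes part in the clock loop, had 0.11, and the testicular orphan receptor genes *Nr2c1* and *Nr2c2* had 0.12 and 0.07. *Nr6a1* and *Esrrg* had -0.08 and -0.10. The 95% intervals of these 10 genes lay within -0.62 to 0.59.

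The NR4A genes are immediate early genes, which many stimuli induce rapidly. *Nr4a1*, named for its values, had 1.149, 9.98 and 1.48 FPKM in WT against 0.591, 2.18 and 0.677 FPKM in knockin livers. It was highest in WT replicate 2, and its log2 fold change of -0.93 (95% interval -2.26 to 0.40, adjusted p = 0.387) was -0.18 without that liver. A list of 10 immediate early genes summed to 108 FPKM in WT replicate 2 and to 38.1 to 74.8 FPKM in the other livers, *Egr1* having 36.0 FPKM there and 3.09 to 16.4 FPKM elsewhere. Their part in the result was not tested. Of that list, *Jun* fell (log2 fold change -0.85, adjusted p = 0.0397) and the other 9 did not pass. The *Jun* call was lost without any 1 of the WT livers and without knockin replicate 1 or 3 (adjusted p = 0.0544 to 0.133), and also with all 6 livers under median-of-ratios scaling (0.0676), quantile normalization (0.0666), no filter on low values (0.116) and no variance trend (0.0505).

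Markers of the other liver cells were examined beside the receptors. Of 8 sinusoidal endothelial markers *Lyve1* fell (-1.26, adjusted p = 0.0281), and the list summed to 114 to 119 FPKM in WT and 99.9 to 113 FPKM in knockin livers. Of 8 stellate cell and 4 cholangiocyte markers tested 0 passed in limma, with 3 and 2 lower and 1 and 1 higher at an unadjusted p under 0.05, and of 7 lymphocyte markers 1 was high enough to test and did not pass. Their part in the receptor results was not tested.

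Replicate 2 of the knockin group often stood at an end of the range. It was the highest of the 6 livers in 8 and the lowest in 9 of the 31 expressed receptors, while knockin replicate 3 was lowest in 8 and WT replicate 3 highest in 9. The median coefficient of variation over the expressed receptors was 12% in WT and 16.2% in knockin livers. Of 15 clock genes tested, *Per1* (-1.04) and *Ciart* (-0.70) fell and 13 did not pass, and when 1 liver was left out 0 (WT replicate 2, WT replicate 3 or knockin replicate 1) to 4 (knockin replicate 3) fell.

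The genes that these receptors control were examined with 10 lists of known targets, 117 genes in all. The lists were written from general knowledge with earlier results of these data known, so their direction is not independent evidence. Each gene was placed in 1 of these lists, and control by more than 1 receptor was not tested. A count is therefore not specific to the receptor that names its list. Of 110 target genes tested, 37 (33.6%) fell and 0 rose (62 lower and 5 higher at an unadjusted p under 0.05), against 6.09% and 1.64% of all genes, and the median log2 fold change was -0.42 against -0.08. Between 18 and 41 fell when 1 liver was left out, with 22 without WT replicate 1, 21 without WT replicate 3 and 18 without knockin replicate 1. No test of one list against another was made.

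Of the PPARA targets, genes of fatty acid oxidation and ketone formation, 14 of 20 fell (median -0.54), led by *Cyp4a14* (-2.22), *Vnn1* (-1.84), *Fgf21* (-1.39) and *Cyp4a10* (-1.23), while *Ppara* itself did not pass. *Vnn1* had 56.2, 44.8 and 65.1 FPKM in WT against 12.9, 15.8 and 15.1 FPKM in knockin livers. The count was 8 without WT replicate 1, 7 without WT replicate 3 and 6 without knockin replicate 1. Of the lipid droplet and fat storage genes listed as PPARG targets, 7 of 12 fell (median -0.95), led by *Cidec* (-2.36), *Mogat1* (-1.77), *Cd36* (-1.64) and *Plin4* (-1.26). *Mogat1*, an enzyme of triglyceride synthesis, had 6.21, 5.02 and 7.97 FPKM in WT against 0.969, 0.366 and 2.67 FPKM in knockin livers. That count was 4 without WT replicate 1, WT replicate 3 or knockin replicate 1. In knockin replicate 2, the liver with adipocyte genes, *Fabp4* and *Lpl* of this list were highest, at 45.5 and 9.62 FPKM.

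Of the CAR and PXR targets, 4 of 16 fell (median -0.55): the bile salt and drug transporters *Slco1a4* (-1.75) and *Abcc3* (-1.24), the cytochrome *Cyp2c29* (-0.82) and the bilirubin-conjugating enzyme *Ugt1a1* (-0.64). *Abcc3* had 79.9, 63.2 and 78.3 FPKM in WT against 26.1, 34.9 and 31.2 FPKM in knockin livers. *Cyp3a11*, the classical PXR target, did not pass (0.30, adjusted p = 0.265), nor did *Cyp2b10*, the classical CAR target, which was at or under 1.37 FPKM in every liver (-0.55, adjusted p = 0.186); both are named for their roles. The count was 2 without WT replicate 1, WT replicate 3 or knockin replicate 1, and 6 without knockin replicate 3.

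Of the LXR targets, 3 of 14 fell (median -0.32), *Pltp* (-1.61), *Fasn* (-1.33) and *Smpdl3a* (-0.42). The count was 6 with TPM (FPKM brought to the same sum in each library) and 1 with median-of-ratios scaling or without the filter on low values. It was 6 without knockin replicate 2, 2 without WT replicate 3, and 1 without WT replicate 1, WT replicate 2 or knockin replicate 1. The study also reports lower *Fasn* in knockin livers by quantitative PCR. It relates this to PPARγ signalling and fatty acid synthesis, so *Fasn* does not stand for the LXRs alone. The cholesterol exporter gene *Abca1*, the LXR target of most tissues, had 7.26, 8.76 and 7.35 FPKM in WT against 9.74, 9.11 and 10.3 FPKM in knockin livers, higher without overlap but not past the test (0.29, adjusted p = 0.128; named for its values). Of the FXR targets 1 of 7 fell, the lipoprotein gene *Apoc2* (-1.19), with a list median of -0.07, near that of all genes. *Abcb11*, the bile salt export pump, did not pass (0.28, adjusted p = 0.102; named for its values) but was higher with quantile normalization of all 6 livers (0.43, adjusted p = 0.0366) and without knockin replicate 2 (0.36, adjusted p = 0.0287). Of 3 bile acid genes that SHP represses, the bile acid importer *Slc10a1* fell (-0.64).

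Of the glucocorticoid receptor targets, 3 of 13 fell (median -0.51), the metallothioneins *Mt1* (-1.76) and *Mt2* (-1.60) and the clock gene *Per1* (-1.04). Of the 13, 12 had negative differences. The one that did not, *Zbtb16*, a zinc finger transcription factor gene named for its values, had 13.2, 2.42 and 1.51 FPKM in WT against 12.9, 18.3 and 8.68 FPKM in knockin livers. The groups overlapped through WT replicate 1, and the gene did not pass (1.47, adjusted p = 0.17) but was higher without that liver (2.23, adjusted p = 0.0115). In every other setting *Zbtb16* had a positive difference and did not pass (adjusted p = 0.127 to 0.437). The count of lower genes was 7 without knockin replicate 2 and 2 without each of WT replicates 2 and 3 and knockin replicates 1 and 3. Of 6 thyroid hormone receptor targets, *Me1* (-1.39) and *Dio1* (-0.50) fell, and 1 fell without WT replicate 1, WT replicate 3 or knockin replicate 1. Of 6 retinoic acid receptor targets 0 passed in limma (2 lower and 2 higher at an unadjusted p under 0.05), 0 had an adjusted p under 0.05 in 13 of the 15 alternative settings, and the most abundant in FPKM, *Dhrs3* and *Tgm2*, had log2 fold changes of 0.04 and -0.32. Of 13 HNF4A targets, *Apoa2* (-0.60) and *Asgr1* (-0.31) fell, with a list median of -0.07; 1 fell without any 1 of the WT livers or knockin replicate 2, and 0 fell without knockin replicate 1.

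**Figure D4:**
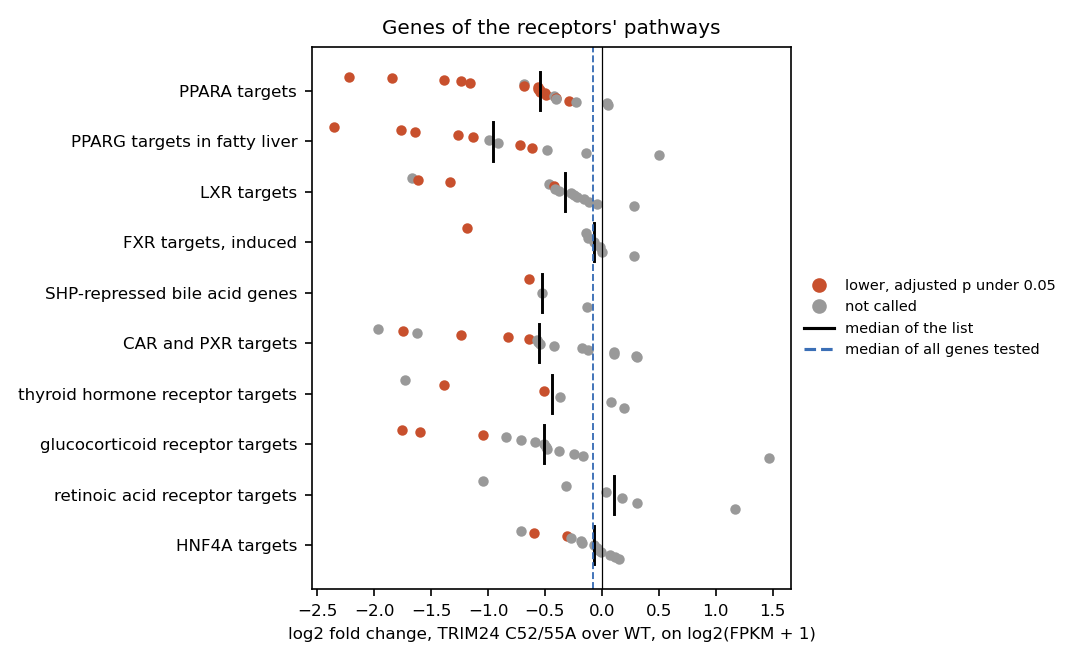
Log2 fold change of TRIM24 C52/55A over WT on log2(FPKM + 1) for each target gene tested (points), by list, with 3 livers per genotype, the median of each list (black bar) and of all genes tested (dashed line). The PPARG and PPARA lists have medians of -0.95 and -0.54, the FXR and HNF4A lists lie near the dashed line, and no point passed the test on the higher side.

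The receptor calls were followed over 15 alternative settings of scaling, filter, variance model and samples. *Pparg* passed in 15 of 15 (log2 fold change -1.70 to -1.26, adjusted p = 0.00278 to 0.0354), *Nr1i3* in 13 (adjusted p = 0.00841 to 0.0527) and *Nr1h2* in 7 (adjusted p = 0.0152 to 0.135). In each setting all 3 had a negative difference.

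**Figure D5:**
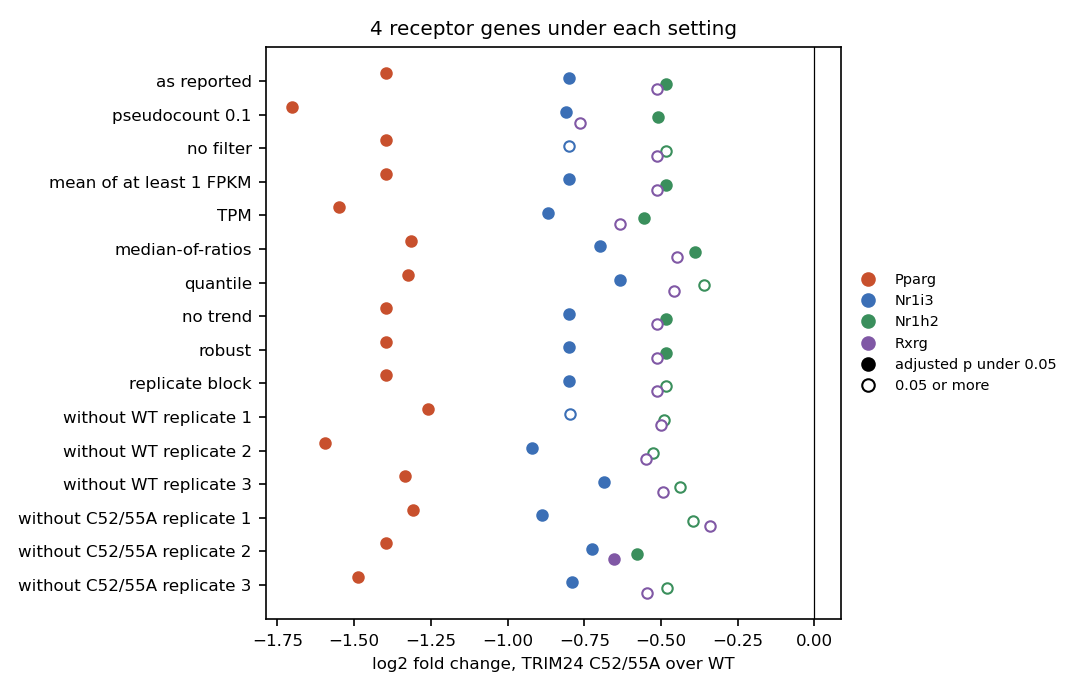
Log2 fold change of TRIM24 C52/55A over WT for *Pparg*, *Nr1i3*, *Nr1h2* and *Rxrg* as reported and under 15 alternative settings, with filled symbols for an adjusted p under 0.05 and open symbols for 0.05 or more. *Pparg* is filled throughout, *Nr1i3* in 13 alternatives, *Nr1h2* in 7 and *Rxrg* in 1.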

How the data were processed

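RNA of 3 WT and 3 TRIM24 C52/55A knockin livers was compared, with groups and replicate numbers taken from the labels. Per the labels, the RNA was extracted with Trizol and sequenced on Illumina libraries. The authors deposited 1 table of FPKM per liver. The submitters' processing notes name bcl2fastq, Salmon 0.14.0, DESeq2 1.30.0 and the build GRCm38 without saying what each made; the annotation is not given in the sources used here. The tables list only values above 0, and an unlisted gene was taken as 0, which may also stand for a failed estimate (the hepatocyte marker *Alb* had no value here). Intervals in the files are over 1.5 times as long as in GENCODE M21 for 3 receptor genes, and within 5% for 26. FPKM depends on transcript length and on the total of each library, so abundant genes can shift all others.

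The test was limma 3.58.1 (R 4.3.3; mean-variance trend, Benjamini-Hochberg adjustment, 95% intervals) on log2(FPKM + 1), for genes that averaged 0.5 FPKM or more, and single values by exact permutation tests with scipy 1.17.1. Tables and plots were made with pandas 2.3.3, numpy 2.4.6 and matplotlib 3.10.9 under Python 3.11.15. The script was tested on simulated data. Receptors were named with values in every liver if they passed the test, were among the 10 highest, did not overlap between genotypes, or were *Ppara*, *Pparg* or *Nr1h3*; of each list at most 4 genes that passed, or the 2 highest if none did. Others are said to be named for their values or roles. The receptor genes, lists, rules and alternatives were chosen with earlier results of these data known. 1 result of a side list is not reported here.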

Additional observations from a re-analysis of the deposited data

How the results depend on the processing

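Receptors called lower numbered 3 as reported and 1 without the filter on low values, and 1 to 4 when 1 liver was left out (1 without WT replicate 1); 0 receptors were called higher in any of the 15 settings. Target genes called lower numbered 37 as reported, 19 without the filter and 18 to 41 when 1 liver was left out; those called higher numbered 0 as reported, 1 with quantile normalization (*Abcb11*) and 0 to 2 when 1 liver was left out. Over all genes, 744 were lower and 200 higher as reported. Without the filter these were 252 and 95, with median-of-ratios scaling 410 and 249, with quantile normalization 378 and 255, and with TPM (each library brought to the same sum) 1295 and 193. With 1 liver left out they ranged from 202 to 1041 and from 88 to 239. Among lists with at least 2 lower genes as reported, and apart from livers left out, that count moved by over 1.5 times for PPARA targets (14; 9 with quantile normalization, 7 without the filter), PPARG targets (7; 4 without the filter), LXR targets (3; 6 with TPM, 1 with median-of-ratios scaling, without the filter or with the replicate block), CAR and PXR targets (4; 2 without the filter), thyroid hormone receptor targets (2; 4 with TPM, 1 without the filter), HNF4A targets (2; 4 with TPM, 1 with median-of-ratios scaling, without the trend or with the replicate block, 0 without the filter) and clock genes (2; 4 with TPM, 1 with median-of-ratios scaling, quantile normalization or the filter at 1 FPKM, 0 without the filter). The filter alternative tests 21528 genes in place of 12225; the cause of the other shifts was not tested. The median of all genes was -0.08 as reported, -0.13 with TPM, 0.01 with median-of-ratios scaling and 0.01 with quantile normalization.

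Same-numbered livers did not deviate together across genes as a whole (r = -0.123, -0.0988 and 0.00267). These values cannot decide whether the numbers pair samples, since they rest on few livers and do not speak for single genes. A block for the replicate number lowered the SE of some receptors, such as *Nr4a1* and *Nr0b2*, and raised that of others, such as *Hnf4a* and *Rxra*. Whether the numbers pair samples was not tested further. With the replicate block, 422 genes were lower and 156 higher, and 2 receptors were lower, *Nr1h2* having an adjusted p of 0.0753. *Nr1i3* lost its call without the filter (adjusted p = 0.0527) and *Nr1h2* without the filter (0.0803) and with quantile normalization (0.0663). Read depth is unknown, so no counting error can be given for the receptors near 0.5 FPKM or below.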
